A study of Mus musculus with 24 samples.

Results

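Granzymes and perforin are the proteins with which natural killer (NK) cells kill, and their transcripts were followed here through the growth of a pair of lymphomas in mice. The 9 genes are Gzma, Gzmb, Gzmc, Gzmd, Gzme, Gzmf, Gzmk, Gzmm and Prf1, chosen by name, and each matched 1 of the 45237 genes of the deposited table. NK cells were sorted from the spleen of wild-type (WT) C57BL/6J mice, and the study's methods give females of 7 to 9 weeks unless specified. The 4 control mice were untreated. The other mice carried a lymphoma injected into a vein. RMA is a T cell lymphoma line that does not stimulate NK cells directly. RMA-KR is 1 clone derived from it by limiting dilution, with B2m knocked out so that MHC class I is absent from the surface, and with the NKG2D ligand Rae1-β added. By the study's text, the RMA and RMA-KR cells both expressed the ZsGreen reporter. NK cells were taken early at day 2 in both models (3 libraries each), at an intermediate stage at day 4 for RMA (3 libraries) and day 7 for RMA-KR (5 libraries), and late at day 9 for RMA and day 14 for RMA-KR (3 libraries each). The day and the tumor therefore cannot be told apart between models after the early stage.

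An NK cell stores these proteins in secretory granules and releases them at the contact with its target. Perforin, encoded by Prf1, forms pores in the target membrane, and the granzymes, a family of serine proteases, pass through to cleave proteins inside the target. Granzyme B is known as a trigger of apoptosis that activates caspases, and resting mouse NK cells are known to hold much granzyme B and perforin transcript but little of the proteins until they are activated, so transcript levels are not protein levels.

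Each library gave between 5138651 (control 1) and 14863500 (RMA-KR late 2) reads counted on genes, with a median of 10489204. Levels are given as normalized CPM, which are counts divided by the library's total after TMM scaling, and a floor of 3 counts corresponded to 0.208 to 0.554 normalized CPM. Together the 9 genes took from 0.863% of all counts (RMA-KR intermediate 5; 95% Wilson interval 0.857% to 0.869%) to 2.41% (RMA late 2; 2.40% to 2.42%), with a median of 1.62%. Intervals and floors of this kind cover counting error only.

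Some libraries stood apart from the others of their group. A list of 12 immediate early and stress genes, which respond within minutes to stimulation or handling, summed to 1277 normalized CPM in control 4 and to 1230, 1369 and 1255 in RMA-KR intermediate 3, 4 and 5. In the other 20 libraries the sum lay between 4335 (RMA late 2) and 9835 (RMA-KR intermediate 1), with no library between. Junb was the most abundant gene of the list. The same 4 libraries held the highest sums of 7 ILC1 markers, and each of them showed many genes with at least 1 count at the common depth of 5138651 counts. That number was 24472 in control 4, 22646, 24529 and 22382 in RMA-KR intermediate 3, 4 and 5, 23111 in control 1, 21655 in RMA late 3, 21049 in RMA early 3, and between 13947 and 19952 in the rest. RMA early 1 and 2 had the lowest median correlation with the other libraries (0.841 and 0.855, against a median of 0.906 over the 24 libraries). Calls were therefore repeated without the 4 libraries low in immediate early genes, without the 7 libraries with over 20000 genes detected, and without RMA early 1 and 2. These limits were set after seeing the data, and RMA-KR early 1 lay just inside both of the last limits (19952 genes; correlation 0.861).

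**Figure D1:**
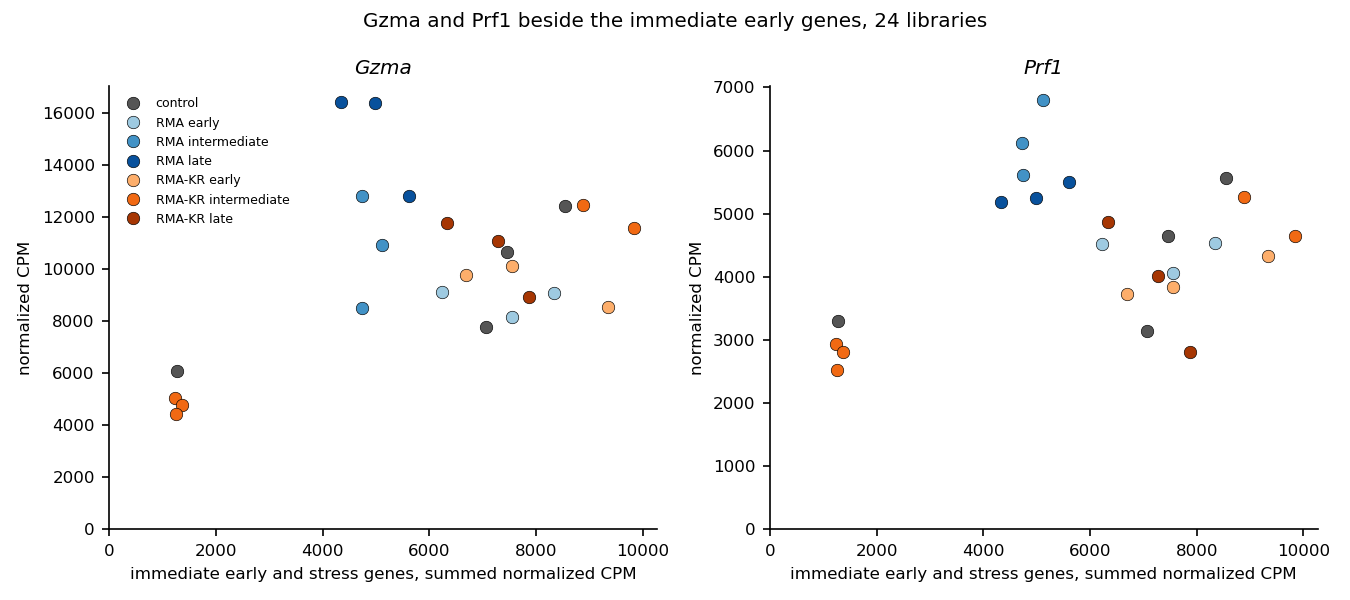
Normalized CPM of Gzma (left) and Prf1 (right) in each of the 24 libraries (points, colored by group) against the summed normalized CPM of the 12 immediate early and stress genes. Control 4 and RMA-KR intermediate 3, 4 and 5 lie alone at the left, between 1230 and 1369, where Gzma was between 4445 and 6066 and Prf1 between 2514 and 3297.

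The labelled cell type was checked against its markers. All 8 NK cell markers were counted in every library, and they summed to between 10051 (RMA-KR late 1) and 14725 (RMA-KR intermediate 2) normalized CPM, with Ncr1, which encodes NKp46, the most abundant at a median of 3170. In RMA intermediate, where Gzmb was called, they summed to 10520, 10517 and 10944, below every control (11150 to 13527). Their median log2 fold change was −0.38 there, against −0.29 over all genes. Of the 8, edgeR called 0, and 4 had an unadjusted p under 0.05 (15.9% of all genes). Their part in the result was not tested. The sort took cells stained for NKp46 and NK1.1 in 1 color and negative for CD3, CD5 and T cell receptors, a gate that innate lymphoid cells of type 1 (ILC1) can also pass. By flow cytometry, a protein measure, the study reported that NK cells in the RMA-KR model lacked CD49a and kept Eomes, against conversion into ILC1. The 7 ILC1 markers summed to 17.4, 48.1, 57.8 and 160 in controls 1 to 4, to 30.4, 26.0 and 33.4 in RMA early, to 29.5, 21.6 and 33.6 in RMA intermediate and to 22.9, 26.9 and 17.4 in RMA late. In the RMA-KR groups they summed to 25.2, 67.6 and 20.5 (early), to 36.4, 29.5, 210, 311 and 212 (intermediate) and to 26.1, 11.7 and 59.5 (late). Il7r was the most abundant of them, from 0.103 to 133, followed by Tmem176b and Cxcr6, and Zfp683 was at 0 in every RMA early, RMA late, RMA-KR early and RMA-KR late library. Because these are bulk samples, fewer cells of a type and less RNA per cell cannot be told apart.

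Markers of other cell types were counted too. T cell markers, which would also mark RMA cells, summed to between 94.9 and 223 normalized CPM. They were at 223, 159 and 142 in RMA late, where Gzmb was called, and at 116, 117, 108 and 150 in controls 1 to 4, with RMA late 3 inside their range. The median log2 fold change of the 7 tested was 0.58 there, against −0.18 over all genes. Of the 7, edgeR called 0, and 1 had an unadjusted p under 0.05 (14.0% of all genes). Their part in the result was not tested. Of these sums Trbc2 alone gave 75.1 to 170, followed by Cd3g and Trac, while Cd3e was at 0 in every RMA-KR early library and at most 5.00 in any library. Of genes of B cells, the 3 most abundant (Ighm, Igkc and Cd22) summed to 485, 582 and 411 in RMA-KR late, where Gzmk was called, and to 279.6, 332, 235 and 409 in controls 1 to 4, with no overlap but a narrow margin. Ighm had 213 to 483, and its mean was 425 ± 59.6 in RMA-KR late (SD, n = 3) against 303 ± 69.0 in control (SD, n = 4), with overlapping ranges (log2 fold change 0.49 ± 0.20, adjusted p = 0.306). Igkc reached 134 in RMA-KR late 2 and at most 2.80 in the controls, with 2 of 3 RMA-KR late libraries above and 1 below every control (4.76 ± 1.41, adjusted p = 0.116), and Cd22 reached 46.6 in RMA-KR intermediate 4. The part of B cells in the result was not tested. Markers of macrophages and monocytes (highest sum 25.5), granulocytes (17.2), basophils and mast cells (9.46) and plasmacytoid dendritic cells (9.66) had median sums of 3.47 or less. The most abundant of each, in the same order, were Lyz2, Csf1r and Cd14, then Ngp, Mpo and S100a8, then Cpa3, Mcpt8 and Tpsb2, and last Ccr9 and Siglech.

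Of the 9 genes, 6 (Gzma, Gzmb, Gzmc, Gzmk, Gzmm and Prf1) were among the 17097 genes with enough counts to be tested with edgeR, with a call set at more than 2-fold and an adjusted p below 0.05. Against control, 1 of the 6 was called higher in RMA intermediate (Gzmb), where 1.65% of all tested genes were called, 1 higher in RMA late (Gzmb; 1.79% of all genes), 1 lower in RMA-KR early (Gzmc; 0.0819%) and 1 higher in RMA-KR late (Gzmk; 0.983%). In RMA early against control edgeR called 0 of the 6 (0% of all genes). There 0 had an unadjusted p under 0.05 (7.04% of all genes). In RMA-KR intermediate against control edgeR again called 0 (0.0175% of all genes), and 0 had an unadjusted p under 0.05 (5.91%). In both of these comparisons DESeq2 and limma voom also called 0. Of all genes, DESeq2 with default settings called 60 and 24 there, and voom 2 and 4. With 6 genes tested, a count of 1 is the smallest that can exceed these shares, so nothing particular to these genes is read from it. All 6 comparisons shared the same 4 control libraries. The median log2 fold change of the 6 genes was 0.48 in RMA intermediate and 0.92 in RMA late, against −0.29 and −0.18 over all tested genes, and 0.23 in RMA-KR late, against −0.18 over all. It was −0.00027 in RMA early, against −0.059 over all, −0.10 in RMA-KR early, against 0.0034, and 0.069 in RMA-KR intermediate, against 0.011.

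Between the models, 1 of the 6 genes was called at the early stage, the only stage with the same day in both (Gzmc, higher in RMA; 0.304% of all genes called), and 1 at the intermediate stage (Gzmb, higher in RMA; 0.503% of all genes). At the late stage edgeR called 0 (0% of all genes), 1 gene had an unadjusted p under 0.05 (Gzmb; 7.31% of all genes), and DESeq2 and voom called 0. Of all genes, DESeq2 with default settings called 42 there and voom 7. From early to late, 2 genes were called higher in RMA-KR (Gzmk and Gzmc; 0.322% of all genes). In RMA the same comparison gave 0 called by edgeR (2.01% of all genes) and 3 with an unadjusted p under 0.05 (17.2% of all genes). DESeq2 called 1 with either setting (Gzmk), where 913 of all genes were called with default settings and 629 with betaPrior=TRUE. Voom called 0 (407 of all genes). Whether that early to late change itself differed between the models was also tested, and edgeR called 0 of the 6 (0% of all genes). The unadjusted p was under 0.05 for 1 gene, Gzmc (10.4% of all genes). DESeq2 with default settings called Gzmc (137 of all genes called) and voom did not (0 of all genes). DESeq2 with betaPrior=TRUE gave that gene no adjusted p.

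**Figure D2:**
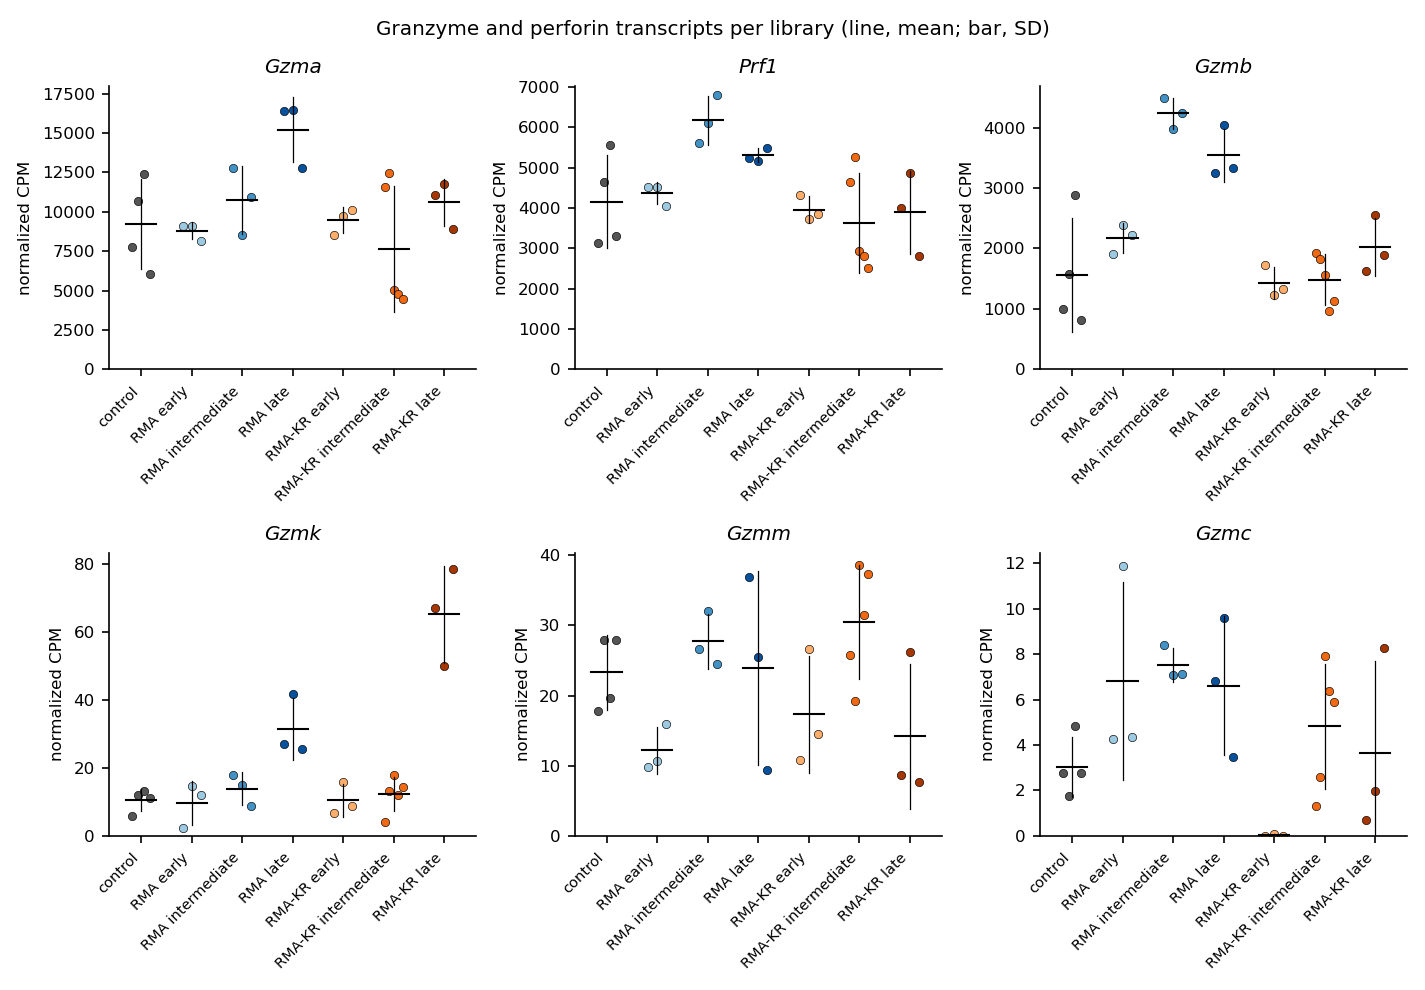
Normalized CPM of the 6 tested genes in each library (points) by group, on linear axes that start at 0. Horizontal lines are group means and vertical bars the SD over 3 to 5 libraries, ended at 0 where they would pass below it. Gzmb lay between 3249 and 4490 in the 6 RMA intermediate and late libraries and at most at 2887 in the controls, and Gzmk between 49.96 and 78.4 in RMA-KR late.

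Perforin is the pore former on which entry of the granzymes depends. Prf1 (ENSMUSG00000037202, chromosome 10 from 61297833 to 61304680 on mm10) had 3140, 4653, 5559 and 3297 normalized CPM in controls 1 to 4. RMA libraries held 4524, 4528 and 4056 early, 5612, 6113 and 6809 at the intermediate stage, and 5250, 5179 and 5501 late. RMA-KR libraries held 4332, 3719 and 3844 early, 4639, 5271, 2933, 2811 and 2514 at the intermediate stage, and 4007, 4860 and 2809 late. All 3 RMA intermediate libraries were above every control and every RMA-KR intermediate library, though by a narrow margin over control 3, and the RMA-KR intermediate libraries fell apart into a higher pair (1 and 2) and a lower set of 3. Prf1 was not called: RMA intermediate stood 0.57 ± 0.22 above control on the log2 scale (SE; adjusted p = 0.237) and 0.77 ± 0.21 above RMA-KR intermediate (adjusted p = 0.121). Without the 4 libraries low in immediate early genes, the latter value was 0.31 (adjusted p = 0.695; from 0.00000000576 to 0.695 over the 12 other settings). In RMA-KR late, the log2 fold change against control was −0.10, with a 95% interval from −0.56 to 0.37.

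Granzyme B cleaves after aspartate and is the best known of the proapoptotic granzymes. Gzmb (ENSMUSG00000015437, chromosome 14 from 56258838 to 56262260) had 990.1, 1569, 2887 and 811 normalized CPM in controls 1 to 4, a spread of more than 3-fold. In RMA it stood at 1904, 2386 and 2216 early, at 4490, 3973 and 4245 at the intermediate stage and at 3249, 4043 and 3328 late. In RMA-KR it stood at 1734, 1231 and 1321 early, at 1922, 1832, 1563, 969 and 1136 at the intermediate stage and at 1635, 2552 and 1889 late. The RMA intermediate and late libraries were thus above all controls and all RMA-KR libraries, while every RMA-KR group overlapped the controls. The control mean was 1564 ± 939 (SD, n = 4), and the RMA intermediate mean was 4236 ± 259 (SD, n = 3).

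Gzmb rose 2.71-fold in RMA intermediate over control (log2 fold change 1.44 ± 0.30 SE, adjusted p = 0.00834, 3 of 3 libraries above every control). The call was lost without control 1 (1.24, adjusted p = 0.0533) and without the 7 libraries with over 20000 genes detected (0.94, adjusted p = 0.132). The other 11 of 12 settings kept it, among them the fit without the 4 libraries low in immediate early genes (1.24, adjusted p = 0.0177). In RMA late, Gzmb rose 2.26-fold (1.18 ± 0.30, adjusted p = 0.0293, 3 of 3 libraries above every control), and this call depended on single libraries. Its adjusted p was 0.143 without control 1, 0.0832 without control 2, 0.121 without control 4, 0.0566 without RMA late 1 and 0.169 without RMA late 2, with log2 fold changes from 0.94 to 1.27. It was kept in 8 of 12 other settings. Without the 4 libraries low in immediate early genes it was 0.97 (adjusted p = 0.0635), and without RMA early 1 and 2, which are in neither group, 1.20 (adjusted p = 0.0533). With 20000 or fewer genes detected it was 0.72 (adjusted p = 0.302), and with only the groups compared in the fit 1.22 (adjusted p = 0.0756).

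Against the other tumor, Gzmb was 2.85-fold higher in RMA intermediate than in RMA-KR intermediate (1.51 ± 0.28, adjusted p = 0.00771, 3 of 3 libraries above all 5). The days differ (4 and 7). This call was kept on leaving out each of the 8 libraries (adjusted p from 0.0140 to 0.0489) but was lost without the 4 libraries low in immediate early genes, 3 of which are RMA-KR intermediate (1.17, adjusted p = 0.0973), with 20000 or fewer genes detected (1.17, adjusted p = 0.0591) and with a term for the genes detected (1.20, adjusted p = 0.0615). Late, the difference between the models was 0.81 ± 0.32 (adjusted p = 0.655), and early it was 0.60 ± 0.32 (adjusted p = 0.444). In RMA-KR late against control Gzmb was at 0.37, with a 95% interval from −0.24 to 0.99.

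The promoter of Gzmb was searched for short motifs of factors known from cytotoxic cells, on both strands, in the 250 bases before the start that RefSeq gives. The motifs were TCACAC (T-box factors, present in 12.3% of 32851 promoters), TGTGGT (Runx, 14.0%), TTCNNNGAA (STAT, 7.02%), TGANTCA (AP-1, 6.75%) and GGAAGT (ETS, 19.7%). The Gzmb window, shown because this gene carries the calls in RMA, held TGTGGT 2 times and TCACAC and TGANTCA 1 time each. It lies at chr14:56262335-56262584 on the minus strand (GRCm38.p6), and capitals mark the matches, which are letters and not evidence that a factor binds.
Gzmb: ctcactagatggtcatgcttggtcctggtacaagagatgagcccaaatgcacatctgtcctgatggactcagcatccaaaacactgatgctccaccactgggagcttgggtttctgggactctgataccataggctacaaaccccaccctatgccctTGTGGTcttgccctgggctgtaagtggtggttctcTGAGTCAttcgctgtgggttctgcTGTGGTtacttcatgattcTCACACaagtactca

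Granzyme A is a tryptase that cleaves after basic residues and is the granzyme most abundant in mouse NK cells. Gzma (ENSMUSG00000023132, chromosome 13 from 113093825 to 113100981) had 7779, 10651, 12410 and 6066 normalized CPM in controls 1 to 4. RMA libraries held 9108, 9089 and 8161 early, 12792, 8493 and 10914 at the intermediate stage, and 16390.3, 16442 and 12806 late. RMA-KR libraries held 8538, 9756 and 10128 early, 11566, 12468, 5031, 4757 and 4445 at the intermediate stage, and 11065, 11789 and 8914 late. The RMA late libraries were the highest of all for Gzma and did not overlap the controls. RMA late 3 (12806) stood close above control 3 (12410) and barely above RMA intermediate 1 (12792). Against control this was 0.72 ± 0.29 on the log2 scale (adjusted p = 0.255; 3 of 3 libraries above every control), so Gzma was not called. In the intermediate RMA-KR group, libraries 3 to 5 were below every control and libraries 1 and 2 were near the highest control. The group's log2 fold change against control was −0.27 ± 0.26 (adjusted p = 0.999), and without the 4 libraries low in immediate early genes it was 0.24.

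Granzyme K is another tryptase, known in mice from memory-like and less mature lymphocytes. Gzmk (ENSMUSG00000042385) lies beside Gzma on chromosome 13, from 113171608 to 113225908, and was a rare transcript in controls at 5.91, 12.0, 13.1 and 11.2 normalized CPM. In RMA it stood at 2.40, 14.7 and 12.0 early, at 18.0, 15.0 and 8.71 at the intermediate stage and at 27.0, 41.9 and 25.4 late. In RMA-KR it stood at 6.77, 15.9 and 8.69 early, at 4.10, 13.2, 17.8, 11.9 and 14.2 at the intermediate stage and at 67.1, 49.96 and 78.4 late. Both late groups were above all other libraries, and the late RMA-KR libraries were above all late RMA libraries. The means were 10.5 ± 3.17 (SD, n = 4) in control, 31.4 ± 9.07 (SD, n = 3) in RMA late and 65.2 ± 14.3 (SD, n = 3) in RMA-KR late.

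Gzmk rose 6.17-fold in RMA-KR late over control (log2 fold change 2.63 ± 0.53, adjusted p = 0.0116, 3 of 3 libraries above every control). The call was kept on leaving out each of the 7 libraries (adjusted p from 0.0179 to 0.0480). It was lost, at a similar size, without the 4 libraries low in immediate early genes (2.70, adjusted p = 0.0521) and with 20000 or fewer genes detected (2.39, adjusted p = 0.255). Over RMA-KR early it rose 6.22-fold (2.64 ± 0.59, adjusted p = 0.0464, 3 of 3 libraries above all 3). That call was lost on leaving out any 1 of the 6 libraries: the adjusted p was 0.220, 0.0782 and 0.131 without RMA-KR early 1, 2 and 3, and 0.0857, 0.0757 and 0.0924 without RMA-KR late 1, 2 and 3. It was also lost with only the groups compared (2.62, adjusted p = 0.218), with 20000 or fewer genes detected (2.63, adjusted p = 0.0927) and without the 4 libraries low in immediate early genes (2.65, adjusted p = 0.0615).

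In RMA late Gzmk was 2.98-fold its control level (1.57 ± 0.52), which edgeR did not call (adjusted p = 0.120) although 3 of 3 libraries were above every control. DESeq2 called it with default settings (adjusted p = 0.0272) and with betaPrior=TRUE (0.0237), as did voom (0.0156) and edgeR on only the groups compared (0.0275). The late models themselves differed by −1.05 ± 0.56 (RMA minus RMA-KR, adjusted p = 0.655), so the higher level in RMA-KR did not pass a test of its own, and the change from early to late differed by −0.95 ± 0.78 (adjusted p = 0.730). The Gzmk window at chr13:113180966-113181215 (minus strand, GRCm38.p6), shown because Gzmk carries the call in RMA-KR late, held TCACAC 2 times, written from its other strand as GTGTGA, and GGAAGT 1 time, written as ACTTCC. The letters TGTGGT, TTCNNNGAA and TGANTCA were not in this window.
Gzmk: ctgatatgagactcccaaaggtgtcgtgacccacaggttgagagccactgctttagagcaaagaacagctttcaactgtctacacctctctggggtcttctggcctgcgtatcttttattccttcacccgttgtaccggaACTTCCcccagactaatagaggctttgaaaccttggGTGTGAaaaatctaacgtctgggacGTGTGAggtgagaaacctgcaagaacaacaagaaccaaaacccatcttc

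**Figure D3:**
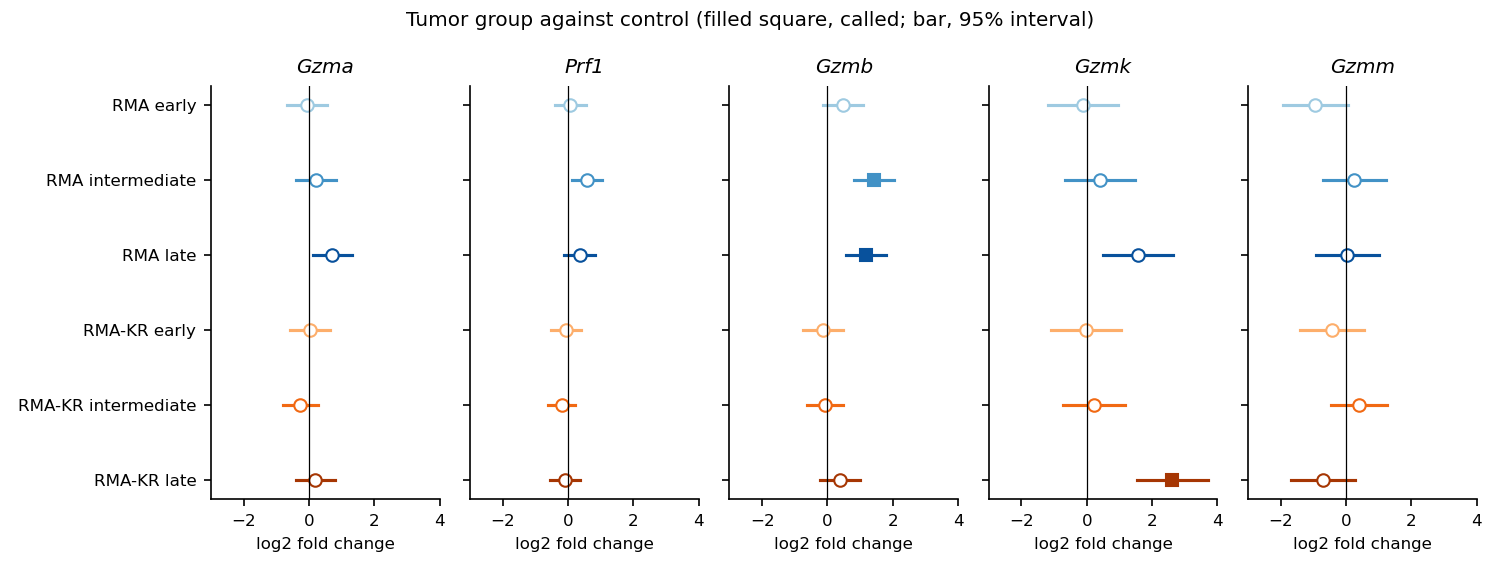
Log2 fold change against control of Gzma, Prf1, Gzmb, Gzmk and Gzmm in the 6 tumor groups, with 95% intervals from the edgeR fit of all 24 libraries. Filled squares are called and open circles are not. Gzmb is called in RMA intermediate (1.44) and RMA late (1.18) and Gzmk in RMA-KR late (2.63). Gzmc is left out because 1 of its groups is near 0 counts.

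Granzyme M cleaves after methionine and leucine and is known for being expressed mainly in NK cells. Gzmm (ENSMUSG00000054206, chromosome 10 from 79689020 to 79695261) ran from 7.71 (RMA-KR late 3) to 38.7 (RMA-KR intermediate 3) normalized CPM, and was called in none of the 12 comparisons by edgeR. Its group means were 23.3 ± 5.39 (SD, n = 4) in control, 12.2 ± 3.32 in RMA early, 27.7 ± 3.89 in RMA intermediate and 23.9 ± 13.8 in RMA late (SD, n = 3 each). They were 17.3 ± 8.30 in RMA-KR early, 30.5 ± 8.13 in RMA-KR intermediate (SD, n = 5) and 14.2 ± 10.4 in RMA-KR late. The RMA early libraries, at 9.87, 10.7 and 16.0, were below every control, with a log2 fold change of −0.93 ± 0.48 (adjusted p = 0.708).

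Granzyme C belongs to the cluster of granzyme genes next to Gzmb, and is known from strongly activated mouse lymphocytes. Gzmc (ENSMUSG00000079186, chromosome 14 from 56231441 to 56234656) was at or near 0 only in RMA-KR early. In controls it had 15, 18, 46 and 31 counts, or 2.77, 1.74, 4.85 and 2.77 normalized CPM. In the RMA-KR early libraries it had 0, 1 and 0 counts at depths of 10451413, 12900199 and 12261320, while RMA early had 32, 115 and 33 counts at lower depths. RMA intermediate stood at 8.38, 7.06 and 7.11 normalized CPM, RMA late at 6.79, 9.58 and 3.47, RMA-KR intermediate at 1.32, 2.61, 7.91, 6.37 and 5.89 and RMA-KR late at 0.712, 1.97 and 8.29. The RMA-KR early libraries were below every other library, and the RMA intermediate libraries were above every control.

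The 3 calls of Gzmc all rested on the 1 count in RMA-KR early. Controls held 109 times its pooled level (95% counting interval 19.2 to 4359; adjusted p = 0.0483, 3 of 3 libraries below every control). RMA early held 264 times that level (46.7 to 10472; adjusted p = 0.0187, 3 of 3 libraries above all 3), and RMA-KR late 123 times (21.7 to 4916; adjusted p = 0.0269, 3 of 3 libraries above all 3). These intervals leave out the variation between mice, and single libraries carried much of the counts. RMA early 2 held 115 of 180 and RMA-KR late 3 held 86 of 122, and without them the fitted log2 fold changes went from 7.46 to 6.79 and from 6.55 to 5.16.

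Against control, the Gzmc call was lost on leaving out any 1 of the 7 libraries. The adjusted p was 0.0801, 0.0872, 0.0935 and 0.0834 without control 1, 2, 3 and 4, and 0.179, 0.194 and 0.184 without RMA-KR early 1, 2 and 3. It was called with no filter on low counts, with voom and with DESeq2's default settings, and by none of the other 7 alternatives that gave an adjusted p. DESeq2 with betaPrior=TRUE gave none for it. RMA-KR early against RMA early kept its call on leaving out RMA early 1 or 3, and lost it without RMA early 2 (adjusted p = 0.0530) and without RMA-KR early 1, 2 or 3 (0.0542, 0.0637 and 0.0683). It was also lost with only the groups compared (0.371) and without RMA early 1 and 2 (0.249). RMA-KR late against early lost its call without RMA-KR early 1, 2 or 3 (0.156, 0.0644 and 0.0851) and without RMA-KR late 3 (0.0655), with voom (0.0592) and with 20000 or fewer genes detected (0.0591). For Gzmc the test of whether the models differed in their early to late change had an adjusted p of 0.196 with edgeR and 0.00607 with DESeq2's default settings (up to 0.880 over the other settings).

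The counts of Gzmc and its neighbors have a further limit in sequence. A read can be placed only where a transcript differs from its copies. The reads were 50 bases long by the study's methods. Of all stretches of that length, 4.14% in Gzmc, 20.6% in Gzme, 21.9% in Gzmd and 19.4% in Gzmf occur unchanged in transcripts of another gene. These were mostly granzymes of the cluster, and for Gzmf mostly Gm4022 (105 of its 169 shared stretches), an antisense transcript that overlaps it. Stretches shared with an overlapping transcript are not copies elsewhere, so the share for Gzmf can overstate this limit. In Gzma, Gzmb, Gzmk, Gzmm and Prf1 the share was 0%. The first 50 coding bases show this likeness (exon 1, minus strand of chromosome 14, GRCm38, GENCODE transcripts). Capitals mark bases that differ from Gzme at the same position: 25 in Gzmb, 2 in Gzmc, 3 in Gzmd and 4 in Gzmf.
Gzmb: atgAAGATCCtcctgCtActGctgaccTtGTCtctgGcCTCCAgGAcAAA
Gzmc: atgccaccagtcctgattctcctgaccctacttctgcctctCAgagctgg
Gzmd: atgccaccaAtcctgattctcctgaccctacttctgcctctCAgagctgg
Gzme: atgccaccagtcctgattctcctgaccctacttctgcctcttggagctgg
Gzmf: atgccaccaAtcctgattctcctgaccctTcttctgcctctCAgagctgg

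Granzymes D, E and F are members of the same cluster. Gzmd (ENSMUSG00000059256, from 56129556 to 56132608) had 1 count over all 24 libraries, in RMA-KR early 2. Gzme (ENSMUSG00000022156, from 56117626 to 56120625) had 5 counts, 1 in control 4, 2 in RMA late 3 and 2 in RMA-KR intermediate 4. Gzmf (ENSMUSG00000015441, from 56205263 to 56211417) had 23 counts, 9 in RMA late 3, 10 in RMA-KR intermediate 4 and 4 in RMA-KR intermediate 5. The libraries with Gzme or Gzmf counts were all among the 7 with over 20000 genes detected, and these 3 genes were not tested. The promoter of Gzmc, shown because this gene was near 0 in RMA-KR early, held TGTGGT 2 times (1 of them written from its other strand as ACCACA) and GGAAGT 1 time, as ACTTCC, in chr14:56234658-56234907 (minus strand, GRCm38.p6). The windows of Gzmd, Gzme and Gzmf held the same motifs in the same numbers.
Gzmc: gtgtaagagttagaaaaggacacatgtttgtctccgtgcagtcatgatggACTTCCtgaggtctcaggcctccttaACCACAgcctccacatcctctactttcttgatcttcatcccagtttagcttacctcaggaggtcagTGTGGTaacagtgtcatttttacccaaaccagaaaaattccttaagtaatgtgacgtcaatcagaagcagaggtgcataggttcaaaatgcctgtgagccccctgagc

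Levels can be set against each other only per length of transcript. Per kb, Gzma stood first in every group, from 8168 ± 4271 normalized CPM per kb (SD, n = 5) in RMA-KR intermediate to 16236 ± 2224 (SD, n = 3) in RMA late, and overlapped no other gene within a group. Prf1 and Gzmb came next. In control Prf1 stood at 1874 ± 519 and Gzmb at 1089 ± 654 per kb (SD, n = 4), with overlapping ranges but Prf1 above Gzmb in 4 of 4 libraries. Early in both models Prf1 was above Gzmb without overlap. In RMA intermediate Gzmb was at 2950 ± 180 and Prf1 at 2782 ± 270.5 per kb, and in RMA late Gzmb was at 2465 ± 305 and Prf1 at 2391 ± 76.1 (SD, n = 3 each), with overlapping ranges in both. Gzmb was above Prf1 in 2 of 3 RMA intermediate libraries and in 1 of 3 RMA late libraries. Gzmm, Gzmk and Gzmc followed far below. Gzmm led Gzmk in control (21.6 against 10.2 per kb, no overlap), and Gzmk led Gzmm in RMA-KR late (63.4 against 13.2 per kb, no overlap) and in RMA late (30.6 against 22.3 per kb, with overlap). Gzmc followed at 3.39 ± 1.46 per kb in control (SD, n = 4), below Gzmk without overlap, and overlapped its upper neighbor in RMA early, RMA intermediate, RMA late, RMA-KR intermediate and RMA-KR late.

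**Figure D4:**
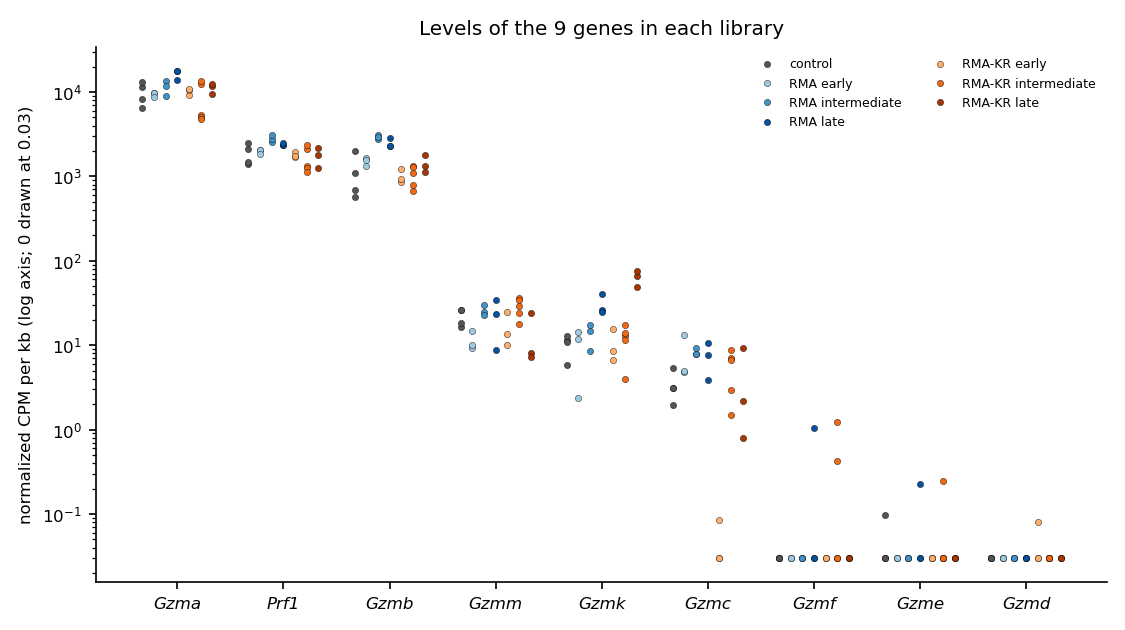
Level of each of the 9 genes in each library, as normalized CPM per kb of transcript on a log axis, with values of 0 drawn at 0.03. Points are libraries, colored by group. Gzma, Prf1 and Gzmb form the upper set, Gzmm, Gzmk and Gzmc lie lower, and Gzmf, Gzme and Gzmd were at 0 in at least 21 of 24 libraries each.

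Granzymes have inhibitors in the serpin family, which protect the killer cell from its own proteases. Of 5 listed inhibitors, all were tested and 3 were called higher in both late groups, Serpinb6b, Serpinb9b and Serpine2, where 1.79% (RMA late) and 0.983% (RMA-KR late) of all tested genes were called. The list was chosen with earlier results of these data known, so this count is not a test of inhibitors as a set. Serpinb6b had 569, 539.7, 613 and 442 normalized CPM in controls, 1382, 1223 and 1399 in RMA late and 1813, 1025 and 944 in RMA-KR late. No late library overlapped the controls, and the log2 fold changes were 1.30 ± 0.20 (adjusted p = 0.000773) and 1.22 ± 0.20 (adjusted p = 0.00225). Serpinb9b had 169, 266, 468 and 129 in controls, 952, 959 and 908 in RMA late and 1929, 749.7 and 572 in RMA-KR late. Its log2 fold changes were 1.86 ± 0.41 (adjusted p = 0.0119) and 2.07 ± 0.41 (adjusted p = 0.0114), again with every late library above every control.

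Serpine2, a secreted serpin known for inhibiting thrombin, rose from a low level. Controls held 9.24, 13.6, 7.48 and 1.70 normalized CPM, RMA early 15.5, 34.2 and 26.3, RMA intermediate 12.8, 19.1 and 21.9, RMA late 42.3, 33.6 and 18.2, RMA-KR early 7.70, 10.8 and 5.96, RMA-KR intermediate 54.6, 40.5, 62.1, 27.6 and 77.9, and RMA-KR late 141, 134 and 142. RMA early, RMA late and the later RMA-KR groups were above every control, RMA intermediate and RMA-KR early overlapped the controls, RMA early overlapped RMA late, and RMA-KR late was above all other libraries. The log2 fold change over control was 1.97 ± 0.47 (adjusted p = 0.0194) in RMA late, 2.72 ± 0.44 (adjusted p = 0.0337) in RMA-KR intermediate and 4.12 ± 0.49 (adjusted p = 0.000251) in RMA-KR late. RMA early stood 1.67 ± 0.46 above control (adjusted p = 0.486), and RMA late 0.31 ± 0.49 above RMA early (adjusted p = 0.794), neither called. The late models differed by −2.15 ± 0.51 for Serpine2 (RMA minus RMA-KR, adjusted p = 0.646), and the change from early to late by −3.78 ± 0.72 (adjusted p = 0.0831), neither of which was called. From early to late, Serpinb6b (1.44 ± 0.22, adjusted p = 0.00107) and Serpinb9b (1.99 ± 0.45, adjusted p = 0.0194) rose in RMA, and Serpine2 (4.09 ± 0.55, adjusted p = 0.00276) in RMA-KR. Serpinb9, the inhibitor best known for granzyme B, was not called in any of the 12 comparisons, since its adjusted p of 0.0384 in RMA late came with a fold change of 1.64. For these genes only the fit of all 24 libraries is given, so how their calls depend on single libraries or settings is not reported here. Serpinb9b, like Gzma, was lower in RMA-KR intermediate 3, 4 and 5 (206, 184 and 178) than in 1 and 2 (436 and 448).

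**Figure D5:**
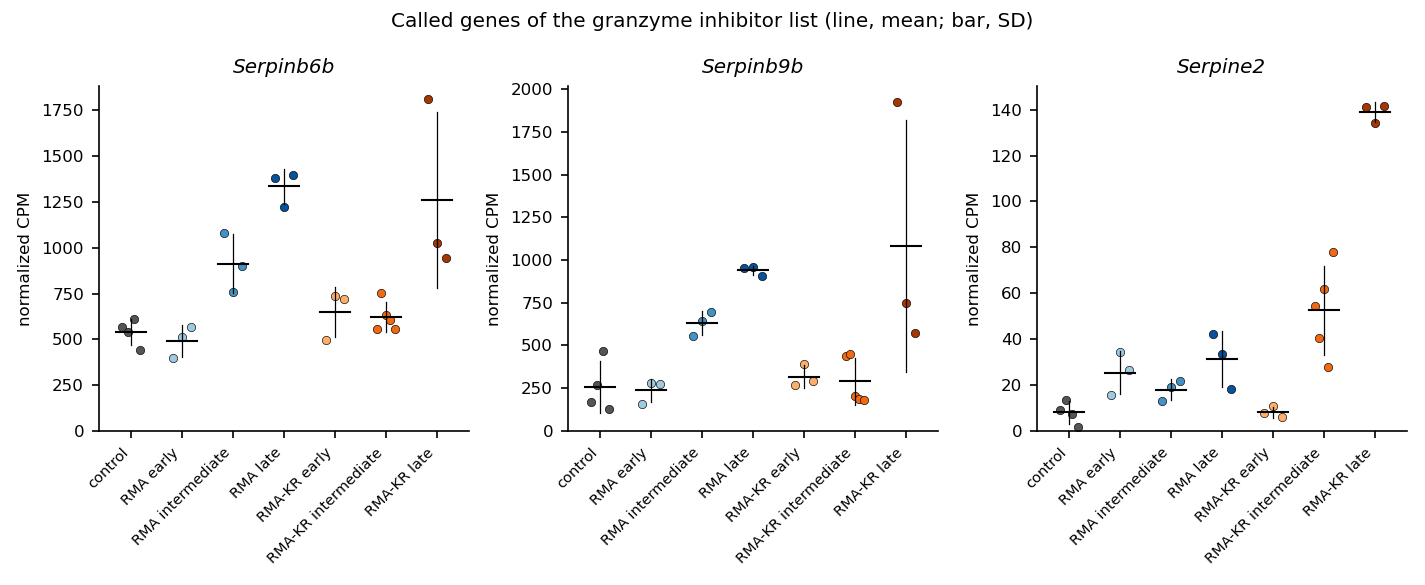
Normalized CPM of the granzyme inhibitors Serpinb6b, Serpinb9b and Serpine2 in each library by group, on linear axes. Points are libraries, horizontal lines means and vertical bars SD. All late libraries of both models lie above every control for all 3 genes, with Serpine2 between 134 and 142 in RMA-KR late.

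Genes that pack and move the granules were counted against the 0% to 2.01% of all tested genes called per comparison, from which counts this small cannot be told apart. Per comparison, 5.91% to 17.2% of all tested genes had an unadjusted p under 0.05. Of 12 genes of granule packing and granzyme activation (among them those of serglycin, cathepsin C and lysosomal membrane proteins), edgeR called 0 in any comparison, with 1 to 5 at an unadjusted p under 0.05 and medians of log2 fold change between −0.21 and 0.42. Of 16 tested genes of granule transport and fusion, 1 was called in 1 of 12 comparisons. That was Rab27a, a small GTPase needed for granule docking, which rose from early to late in RMA (1.43 ± 0.32, adjusted p = 0.0180), from 60.3, 55.6 and 82.1 to 182, 157 and 195 normalized CPM with no overlap. RMA early 1 and 2 are the libraries of lowest correlation. Controls 1 to 4 held 85.0, 105, 116 and 68.3 and RMA-KR early held 142, 131 and 135, so the rise starts from a low RMA early. Of 10 death ligands, cytokines and chemokines and of 10 tested transcription factors of cytotoxic genes, 0 were called in any comparison, with at most 2 and 3 at an unadjusted p under 0.05. Among 9 serine proteases beside the granzyme B cluster only 1 was tested and 0 called, and the granzymes Gzmg and Gzmn had at most 1 and 3 counts in any library.

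Of 20 genes of proliferation, edgeR called 19 higher in RMA intermediate than in control, 15 in RMA late, 10 in RMA-KR late, 9 in RMA intermediate over RMA-KR intermediate and 6 in RMA late over RMA early. It called 0 in the other 7 comparisons, among which RMA-KR late over early had 18 at an unadjusted p under 0.05 (15.0% of all genes). Plk1, a mitotic kinase, rose by 4.67 ± 0.61 (log2 fold change, adjusted p = 0.000179) in RMA intermediate, by 4.11 ± 0.60 (adjusted p = 0.000468) in RMA late and by 4.07 ± 0.60 (adjusted p = 0.00113) in RMA-KR late. The other genes with the smallest p in RMA intermediate were Rrm2 (3.94 ± 0.53, adjusted p = 0.000221), Top2a (3.59 ± 0.50), Mcm6 (1.78 ± 0.28) and Birc5 (3.66 ± 0.63). Rrm2, Top2a, Birc5 and Mcm6 also led beside Plk1 in RMA late, and Rrm2, Top2a, Ccnb1 and Birc5 in RMA-KR late. Between the intermediate groups the first 5 were Plk1, Rrm2, Top2a, Birc5 and Hmgb2, and from early to late in RMA they were Birc5, Top2a, Plk1, Ccnb1 and Rrm2. The list summed to 1415 ± 149 normalized CPM in control (SD, n = 4), 7407 ± 1512 in RMA intermediate, 5957 ± 1857 in RMA late and 4555 ± 1682 in RMA-KR late (SD, n = 3 each). In RMA-KR intermediate it was 1741, 2025, 4217, 2235 and 3381, all above every control (1214 to 1530), with the 3 libraries low in immediate early genes the highest. It was 1119, 2885 and 2471 in RMA early and 1506, 1575 and 1679 in RMA-KR early. The part of proliferation in the granzyme results was not tested. Among 11 tested immediate early and stress genes, Egr1 was called higher in RMA-KR late than in control (1.84 ± 0.38, adjusted p = 0.0151) and Fosb lower in RMA late than in RMA early (−2.76 ± 0.72, adjusted p = 0.0378). The Fosb comparison includes RMA early 1 and 2, the libraries of lowest correlation. Of the markers of NK cells, ILC1, T cells, macrophages and monocytes, granulocytes, basophils and mast cells, and plasmacytoid dendritic cells, edgeR called 0 in any comparison. At an unadjusted p under 0.05 there were at most 4 of 8 NK cell markers, 2 of 6 ILC1 and 1 of 7 T cell markers, 1 gene each of the macrophage, granulocyte and plasmacytoid lists and 0 of the basophil list. Over all genes the share under 0.05 was 5.91% to 17.2% per comparison.

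Finally, the genes whose levels ran most like Gzma, Gzmb, Prf1 and Gzmc over the 24 libraries were listed by Pearson's r of log2 CPM, among 7800 tested genes that had 10 or more counts in each of the libraries. The 24 libraries share their groups and differ in quality, so r is given as a description with no test. For Gzma they were Calm2 (calmodulin; r = 0.929), Klrg1 (an inhibitory receptor of mature NK cells; 0.904) and Sdcbp (0.900). For Gzmb they were Irf8 (a transcription factor; 0.877), Gbp3 (0.874) and Phf11b (0.853). For Prf1 they were Arf1 (0.861), Irf8 (0.840) and Ctsd (cathepsin D; 0.832), and for Gzmc Fam162a (0.864), Nudcd1 (0.841) and Hspe1 (0.817).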

How the data were processed

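RNA-seq of NK cells sorted from mouse spleen gave 24 libraries in 7 groups, as labelled, and all of them were used. The authors deposited, in the table used here, raw counts for 45237 genes with their positions on mm10 and the median length of their transcripts. The authors trimmed reads with cutadapt 1.10, removed ribosomal reads with Bowtie2 2.2.8, aligned with STAR 2.5.3a and counted with HTSeq 0.6.1p1. Of its 112 columns the 24 with counts were used. Left unused were 48 other columns of the libraries and 29 with comparisons by the authors.

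Counts were scaled by TMM and fitted with 1 mean per group in edgeR 4.0.16 (R 4.3.3; quasi-likelihood test, robust) over the 17097 genes kept by filterByExpr. P-values were adjusted by Benjamini-Hochberg over all of them, and 12 comparisons were made. A call needed more than 2-fold change and an adjusted p below 0.05. Standard errors follow from the fold change and the F statistic. The procedure was tested on simulated data. A gene not called is not shown to be unchanged, since groups held 3 to 5 mice.

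Alternatives were DESeq2 1.42.0 size factors, DESeq2 with default settings and with betaPrior=TRUE (the study's test), limma 3.58.1 voom with sample quality weights, no filter, a filter of 10 counts in all libraries, replicate number as a block, only the groups compared, and each library left out. Those chosen after seeing the data were a term for genes detected at the depth of the shallowest library, at most 20000 such genes, a median correlation with other libraries of at least 0.86, and a sum of immediate early and stress genes of at least 3000 normalized CPM.

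The 9 genes and the 17 gene lists were chosen with earlier results of these data known. All 9 genes are named. From the lists, called genes are named, up to 5 per list and comparison by smallest p, and up to 3 of the most abundant genes of lists of other cell types, where the list is reported. Ncr1, Cd3e, Zfp683, Serpinb9, Gzmg, Gzmn and Gm4022 were picked beside this after their values were seen. A value of 3 counts served as a floor. Genes most like a member are the 3 with the highest correlation. Of the 17 genes listed for granule transport, 16 were found. All 9 genes matched RefSeq promoters of GRCm38.p6 (250 bases before the start, 10 windows).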

Additional observations from a re-analysis of the deposited data

Results flagged for a closer look

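In the group of 4 controls, Gzme in control 4 (0.0893 normalized CPM) stood apart because it was the 1 library with a count, 1 read, while the other 3 were at 0. In the group of 5 RMA-KR intermediate libraries, Gzme in RMA-KR intermediate 4 (0.227 normalized CPM, 2 reads) stood apart in the same way. Both values are below the floor of 3 counts. For continuous values chance marks about 1 in 20 groups. With all others at 0 any single count is marked, so that rate does not hold for these groups.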

How the results depend on the processing

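Of 851 fold changes refitted under other settings, 767 kept their direction and their side of the threshold, 27 lost a call, 7 gained one and 50 changed sign. On leaving out 1 library, 465 of 528 kept both, 27 lost a call and 36 changed sign. No result that changed sign was called, and the causes were not tested. Groups of 3 to 5 mice limit every test, and 4 of the alternatives were chosen after seeing the data. RMA early held 1 library without RMA early 1 and 2, so its spread was taken from the other groups. With 10 counts in all libraries, and in RMA-KR late against early with only the groups compared, Gzmc was not tested. DESeq2 size factors changed only the call of Gzmc in RMA-KR early, to 0. TMM left median log2 fold changes over all genes of −0.29 in RMA intermediate and −0.18 in RMA late and RMA-KR late against control. Replicate numbers were not known to pair mice: over 64 pairs of libraries with the same number in different groups the median correlation was −0.00711, and 5 of 24 libraries were closest to their own number. The block ended the calls of Gzmk (adjusted p = 0.0523) and Gzmc (0.0579) in RMA-KR late against early and of Gzmc in RMA-KR early against control (0.158). DESeq2 with betaPrior=TRUE gave Gzmc no adjusted p in the latter, so its 0 there is not a test.

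The number of the 6 genes called changed as follows. With 20000 or fewer genes detected 0 (RMA intermediate vs control), 0 (RMA late vs control), 0 (RMA-KR early vs control), 0 (RMA-KR late vs control), 0 (RMA intermediate vs RMA-KR intermediate), 0 (RMA-KR late vs RMA-KR early). With voom 2 (RMA late vs control; 982 of all genes), 1 (RMA-KR late vs RMA-KR early; 71 of all genes). With DESeq2 2 (RMA late vs control; 601 of all genes), 1 (RMA late vs RMA early; 913 of all genes), 1 (difference between RMA and RMA-KR in the change from early to late; 137 of all genes). With betaPrior 2 (RMA late vs control; 472 of all genes), 0 (RMA-KR early vs control; 91 of all genes), 1 (RMA late vs RMA early; 629 of all genes). Without RMA early 1 and 2 0 (RMA late vs control), 0 (RMA-KR early vs control), 0 (RMA early vs RMA-KR early). Without the libraries low in immediate early genes 0 (RMA late vs control), 0 (RMA-KR early vs control), 0 (RMA-KR late vs control), 0 (RMA intermediate vs RMA-KR intermediate), 1 (RMA-KR late vs RMA-KR early). With DESeq2 size factors 0 (RMA-KR early vs control). With 10 counts in all libraries 0 (RMA-KR early vs control), 0 (RMA early vs RMA-KR early), 1 (RMA-KR late vs RMA-KR early). With the block 0 (RMA-KR early vs control), 0 (RMA-KR late vs RMA-KR early). With only the groups compared 0 (RMA-KR early vs control), 0 (RMA early vs RMA-KR early), 0 (RMA-KR late vs RMA-KR early). With the term for genes detected 0 (RMA-KR early vs control), 0 (RMA intermediate vs RMA-KR intermediate). On leaving out 1 library it fell, at its lowest, to 0 (RMA intermediate vs control), 0 (RMA late vs control), 0 (RMA-KR early vs control), 0 (RMA early vs RMA-KR early), 0 (RMA-KR late vs RMA-KR early).

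Log2 fold changes that changed sign were these. With DESeq2 size factors, they were 0.0066 (Gzma, RMA early vs control), 0.0354 (Gzmk, RMA-KR early vs control). With DESeq2, they were 0.0067 (Gzma, RMA early vs control), 0.0340 (Gzmk, RMA-KR early vs control). With betaPrior, they were 0.0092 (Gzma, RMA early vs control), 0.0072 (Gzmk, RMA early vs control), 0.0613 (Gzmk, RMA-KR early vs control). With the term for genes detected, they were −0.38 (Gzma, RMA intermediate vs control), −0.15 (Gzma, RMA-KR early vs control), −0.33 (Gzma, RMA-KR late vs control), −0.18 (Gzma, RMA-KR late vs RMA-KR early), 0.0139 (Gzmk, RMA-KR early vs control), −0.0995 (Prf1, RMA early vs control). With 20000 or fewer genes detected, they were −0.0908 (Gzma, RMA intermediate vs control), −0.27 (Gzma, RMA-KR early vs control), 0.0747 (Gzma, RMA-KR intermediate vs control), −0.11 (Gzma, RMA-KR late vs control), −0.17 (Gzma, RMA intermediate vs RMA-KR intermediate), −0.0264 (Gzmb, RMA early vs control), −0.12 (Gzmb, RMA-KR late vs control), −0.73 (Gzmc, RMA-KR intermediate vs control), 0.0096 (Gzmc, RMA late vs RMA early), −0.52 (Gzmk, RMA-KR intermediate vs control), −0.0653 (Gzmm, RMA-KR intermediate vs control), 0.30 (Gzmm, RMA intermediate vs RMA-KR intermediate), −0.14 (Prf1, RMA early vs control). With the block, they were −0.15 (Gzma, RMA-KR early vs control), −0.0077 (Gzma, RMA-KR late vs control), 0.0630 (Gzmb, RMA-KR intermediate vs control), 0.0595 (Gzmc, RMA late vs RMA early), 0.0139 (Gzmk, RMA-KR early vs control), −0.0504 (Prf1, RMA early vs control). Without the libraries low in immediate early genes, they were −0.0838 (Gzma, RMA-KR early vs control), 0.24 (Gzma, RMA-KR intermediate vs control), −0.16 (Gzma, RMA intermediate vs RMA-KR intermediate), 0.0683 (Gzmb, RMA-KR intermediate vs control), −0.65 (Gzmc, RMA-KR intermediate vs control), 0.0527 (Gzmk, RMA-KR early vs control), −0.24 (Gzmk, RMA-KR intermediate vs control), 0.30 (Gzmm, RMA intermediate vs RMA-KR intermediate), 0.17 (Prf1, RMA-KR intermediate vs control). With voom, they were −0.74 (Gzmc, RMA-KR late vs control), 0.42 (Gzmc, RMA late vs RMA early), 0.0847 (Prf1, RMA-KR late vs RMA-KR early). Without RMA early 1 and 2, they were 0.62 (Gzmc, RMA late vs RMA early), 0.20 (Gzmk, RMA early vs control), 0.22 (Gzmk, RMA early vs RMA-KR early), −0.0238 (Prf1, RMA early vs control), 0.0122 (Prf1, RMA-KR late vs RMA-KR early). With 10 counts in all libraries, they were 0.0138 (Gzmk, RMA-KR early vs control). On leaving out each library in turn, the results that changed sign ranged over −0.21 to 0.12 (Gzma, RMA early vs control), −0.10 to 0.23 (Gzma, RMA-KR early vs control), −0.33 to 0.37 (Gzmb, RMA-KR early vs control), −0.30 to 0.40 (Gzmb, RMA-KR intermediate vs control), −1.12 to 0.74 (Gzmc, RMA-KR late vs control), −0.41 to 0.61 (Gzmc, RMA late vs RMA early), −0.52 to 0.37 (Gzmk, RMA early vs control), −0.44 to 0.26 (Gzmk, RMA-KR early vs control), −0.54 to 0.38 (Gzmk, RMA early vs RMA-KR early), −0.0454 to 0.47 (Gzmk, RMA intermediate vs RMA-KR intermediate), −0.39 to 0.46 (Gzmm, RMA late vs control), −1.05 to 0.20 (Gzmm, RMA-KR late vs RMA-KR early), −0.0211 to 0.26 (Prf1, RMA early vs control), −0.16 to 0.12 (Prf1, RMA-KR early vs control), −0.26 to 0.13 (Prf1, RMA-KR late vs control), −0.19 to 0.20 (Prf1, RMA-KR late vs RMA-KR early).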
